A study of Mus musculus with 3 samples.

Results

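The 10 genes described here are markers of pericytes, the mural cells that wrap capillaries: Pdgfrb, Cspg4, Kcnj8, Abcc9, Rgs5, Anpep, Vtn, Atp13a5, Higd1b and Ndufa4l2. They were taken as a list of names and matched by symbol, and all 10 were found among 29787 genes with a usable transcript. Each of the 10 passed the minimum level of 1 CPM (read counts scaled to library size) in at least 1 library, which 16604 genes did. RNA came from brain vessels of 3-month-old mice in 3 libraries, 1 for each group. The first group was hGFAP-Cre/Cx43fl/fl on a mixed C57BL6-BALB/c background, in which Cre recombinase under the human GFAP promoter deletes floxed connexin 43 in astroglia and in other descendants of radial glia. The second was wild type (WT) of the C57BL6-BALB/c background and the third was WT C57BL6, neither labelled as carrying Cre or the floxed allele. The sources used here do not say whether a library came from 1 mouse or from several pooled.

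Pericytes share a basement membrane with the capillary endothelium. They are recruited and kept there by platelet-derived growth factor B, released by endothelial cells and bound by the receptor PDGFRβ on the pericyte. In the brain they are known for their density and for their part in forming and keeping the blood-brain barrier, next to the astrocyte endfeet that carry connexin 43. Several of their markers are shared with arterial smooth muscle, and Cspg4 also marks oligodendrocyte precursors.

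The library totals were 54975610 reads (Cx43-deleted), 21170766 reads (WT C57BL6-BALB/c) and 24830975 reads (WT C57BL6), and values in threes below follow this order. Gja1, the connexin 43 gene, was at 47.98, 202 and 202 CPM, 4.202-fold below WT C57BL6-BALB/c and 4.215-fold below WT C57BL6. Summed over a list, endothelial markers were at 12605, 11603 and 18788 CPM, neuron markers at 8288, 8437 and 6424, and oligodendrocyte markers at 13775, 14140 and 17642, so the vessel preparations held RNA of other brain cells. No marker of these 3 lists was at 0 in any library. With 1 library per group there was no test and no replicate error. A difference below is a difference between libraries, and a smaller share of pericytes cannot be told apart from less RNA of these genes per pericyte. A gene was counted as different when its normalised level differed 2-fold or more, a log2 ratio of at least 1 in size. A level below is the normalised CPM of a gene, all its transcripts added up. Reads and folds refer to the transcript with the most reads, and folds have 95% exact binomial intervals that cover counting error only.

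Against the background-matched WT library, 9 of the 10 pericyte markers differed little and 1, Cspg4, was much lower in the Cx43-deleted library. The 9 had log2 ratios of level from −0.17 (Vtn) to 0.23 (Rgs5), while Cspg4 was at −0.95. Against WT C57BL6 all 10 were lower, from −0.98 (Vtn) to −0.48 (Abcc9). Between the WT libraries, the 9 were lower in WT C57BL6-BALB/c than in WT C57BL6, from −1.003 (Kcnj8) to −0.54 (Anpep), and Cspg4 was at 0.13. Among all 16604 genes, 7.69% were lower than in WT C57BL6 in both other libraries by at least the smallest of these differences. That cut was taken from the 9 genes themselves, after Cspg4 was set aside on its values. All 9 therefore meet it by construction, and the share is no test of them.

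**Figure D1:**
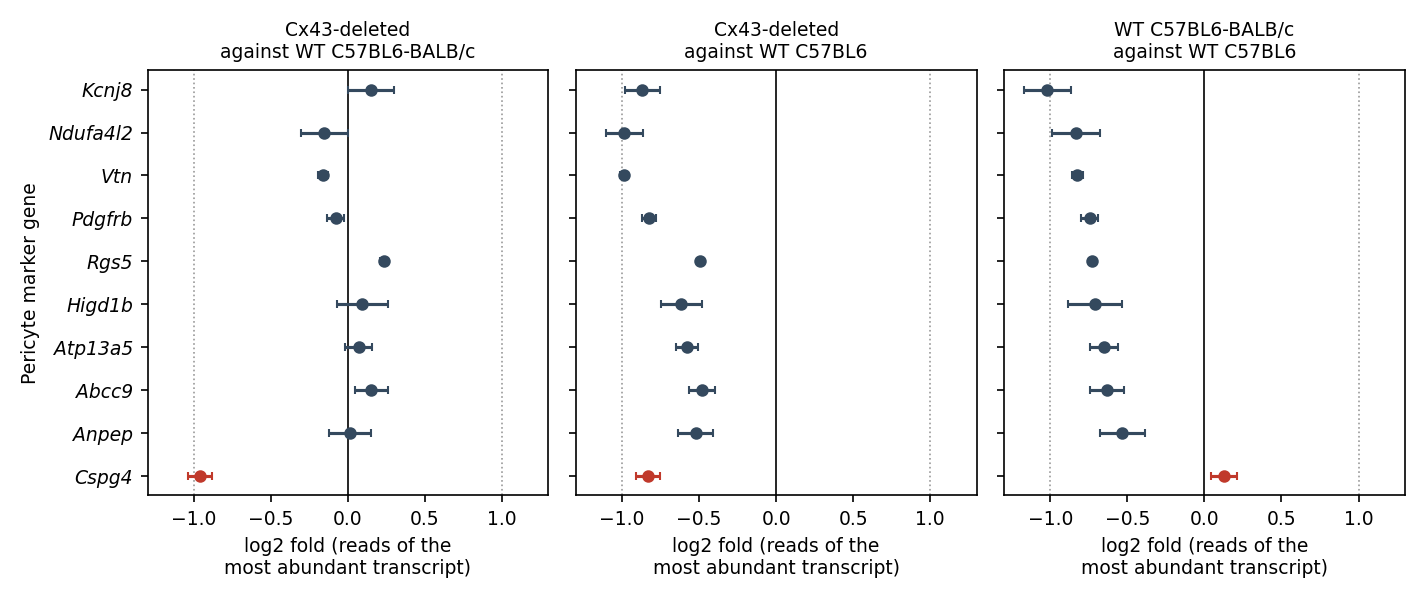
Log2 fold of each pericyte marker (points, from reads of the most abundant transcript) with its 95% counting interval (bars), in 3 comparisons of 1 library with 1 library; dotted lines mark a 2-fold difference. The 9 genes in dark blue lie near 0 in the left panel and below 0 in the other panels, while Cspg4 (red) lies far below 0 in the left panel and slightly above 0 in the right one.

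The median log2 ratio of the 10 was 0.04 against WT C57BL6-BALB/c, where the median over all genes was 0.00. It was −0.71 against WT C57BL6, where that of all genes was −0.03, and −0.70 between the WT libraries, again beside −0.03. No marker was 2-fold lower or higher than in WT C57BL6-BALB/c, where 1.01% of all genes were 2-fold lower and 1.05% were 2-fold higher. By any amount 4 were lower, beside 49.5% of all genes. None was 2-fold lower or higher than in WT C57BL6, beside 2.91% and 1.54% of all genes. That all 10 were lower there by any amount compares with 52.9% of all genes. Between the WT libraries 1 marker, Kcnj8, was counted as 2-fold lower in WT C57BL6-BALB/c, beside 2.09% of all genes, and 0 were 2-fold higher, beside 1.17%. By any amount 9 of the 10 were lower there, beside 53.3%. By any amount, 4 of the 10 lay below both WT libraries (Cspg4, Vtn, Ndufa4l2 and Pdgfrb), a share near the 35.6% of all genes that did. None lay above both, which 33.2% of all genes did. That count depends on the scaling: relative to the median of endothelial markers, 5 of the 10 lay above both (Abcc9, Rgs5, Anpep, Atp13a5 and Higd1b) and 4 below both.

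Pdgfrb (ENSMUSG00000024620, chromosome 18), the receptor on which pericyte recruitment depends, had 9642, 4030 and 8089 reads, a level of 359, 380.0 and 637. Its level was highest in WT C57BL6 and similar in the other libraries. It was 1.06-fold (1.02 to 1.10) lower than in WT C57BL6-BALB/c and 1.77-fold (1.72 to 1.82) lower than in WT C57BL6. The WT libraries differed by 1.68-fold (1.61 to 1.74) without the deletion.

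The ligands of the family did not all follow the receptor. Pdgfb, the endothelial ligand, was at 130.2, 142 and 203, with the same order of libraries as Pdgfrb. Reads of Pdgfrb per read of Pdgfb were 1.38, 1.33 and 1.56. Pdgfa, a ligand made by neurons and astrocytes among other cells, was at 199, 238 and 207, and Pdgfc at 22.1, 29.7 and 25.6. Both were highest in WT C57BL6-BALB/c. Pdgfd, another ligand of PDGFRβ, was at 35.1, 31.9 and 49.8. Pdgfra, the receptor of oligodendrocyte precursors and fibroblasts, was at 55.6, 58.9 and 75.6, and Pdgfrl, a receptor-like gene, at 3.91, 4.999 and 6.38. In 5 of these 6 genes the Cx43-deleted library was the lowest, beside 35.6% of all genes, and in 0 of them by 2-fold, beside 0.379%. The count of 5 depends on the scaling: all 6 had log2 ratios to WT C57BL6 above the endothelial median of −0.75.

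Cspg4 (ENSMUSG00000032911, GRCm38 chromosome 9, 56865033 to 56899870) encodes NG2, a membrane proteoglycan of pericytes, smooth muscle and oligodendrocyte precursors. It had 3014, 2319 and 2544 reads, which at these depths is a level of 56.2, 109 and 100.1. On this scale of library depth the Cx43-deleted library was low and the WT libraries lay close together. Which library stood apart depended on the scaling: relative to the median of endothelial markers, the log2 ratio was −0.92 to WT C57BL6-BALB/c, −0.07 to WT C57BL6 and 0.85 for WT C57BL6-BALB/c to WT C57BL6, so that WT C57BL6-BALB/c was high and the others lay close together. It was 1.95-fold (1.84 to 2.06) lower than in WT C57BL6-BALB/c and 1.78-fold (1.69 to 1.88) lower than in WT C57BL6, and the WT libraries differed by 1.09-fold (1.03 to 1.16). Of all genes, 130 (0.783%) lay at least as far below both WT libraries as Cspg4. The reads covered the transcript in each library, since 29, 14 and 23 of its 7259 bases had no read.

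Of the other cells that express Cspg4, smooth muscle had markers lower than in WT C57BL6-BALB/c, while markers of oligodendrocyte precursors had no clear direction. Smooth muscle markers were at 4610.0, 7359 and 5936 summed over the list, with none at 0, and oligodendrocyte precursor markers at 499, 442 and 458, also with none at 0. Of 18 measured smooth muscle markers, 18 were lower than in WT C57BL6-BALB/c, beside 49.5% of all genes, and 3 were 2-fold lower, beside 1.01%. These 3, picked out after their values were seen, were Cnn1 (log2 ratio −1.43) and Lmod1 (−1.01), which belong to the contractile apparatus, and Pln (−1.12), a regulator of calcium uptake. Pln is uncertain, as 64.8% of its exon bases overlap other genes. Synpo2, an actin-binding protein of muscle, had the pattern of Cspg4, at 94.9, 179.6 and 172, while Casq2, a calcium store protein, was at 12.8, 21.7 and 41.2 and Olfr558 at 10.7, 17.0 and 21.9. Of 11 measured oligodendrocyte precursor markers, 7 exceeded WT C57BL6-BALB/c and 4 were lower (49.5% of all genes were lower). Against WT C57BL6, 6 were higher and 5 lower. Vcan, the precursor marker furthest above both WT libraries, was at 106, 72.6 and 67.3. Reads of Cspg4 per read of Acta2, the smooth muscle actin, were 0.134 (0.129 to 0.139), 0.134 (0.128 to 0.140) and 0.175 (0.168 to 0.182), so that ratio did not separate the Cx43-deleted library from WT C57BL6-BALB/c. Acta2 was chosen for this ratio after its values were seen. The part of either cell type in the Cspg4 difference was not tested.

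Anpep (ENSMUSG00000039062, chromosome 7, 79821803 to 79861059) encodes CD13, an aminopeptidase on the pericyte surface. It had 1542, 605 and 1049 reads, a level of 57.1, 56.6 and 82.4. Its fold to WT C57BL6-BALB/c was 1.01 (0.917 to 1.11), so no difference was detectable at this depth. It was 1.44-fold (1.33 to 1.55) lower than in WT C57BL6. The surface markers Anpep and Cspg4 thus differed in which WT library the Cx43-deleted library resembled: on the scale of library depth, Anpep lay with WT C57BL6-BALB/c, and Cspg4 with neither.

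Kcnj8 and Abcc9 encode the subunits of the vascular ATP-sensitive potassium channel, the pore Kir6.1 and the sulfonylurea receptor SUR2. They lie next to each other on chromosome 6, Kcnj8 (ENSMUSG00000030247) at 142564837 to 142571614 and Abcc9 (ENSMUSG00000030249) at 142587862 to 142702315, with 16247 bases between them. Kcnj8 had 1400, 499 and 1211 reads, a level of 26.1, 23.5 and 47.7, and Abcc9 had 2783, 991 and 1839 reads, a level of 207, 187 and 289. Both were lowest in WT C57BL6-BALB/c and highest in WT C57BL6, an order that the levels of Rgs5, Anpep, Atp13a5 and Higd1b shared. For Anpep, Atp13a5 and Higd1b, counting error covered the difference between the Cx43-deleted library and WT C57BL6-BALB/c. Kcnj8 exceeded WT C57BL6-BALB/c by 1.11-fold (1.001 to 1.23), and Abcc9 by 1.11-fold (1.03 to 1.19). Against WT C57BL6, Kcnj8 was 1.83-fold (1.69 to 1.97) lower and Abcc9 1.40-fold (1.31 to 1.48) lower.

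The proportion of the channel genes did not differ beyond counting error between the libraries of the mixed background. Reads of Kcnj8 per read of Abcc9 were 0.503 (0.471 to 0.537), 0.504 (0.451 to 0.561) and 0.659 (0.612 to 0.708). The interval of WT C57BL6 did not overlap the other intervals. Kcnj8 was 2.03-fold (1.82 to 2.25) lower in WT C57BL6-BALB/c than in WT C57BL6, which rests on 499 reads in the shallower library, where no read fell on 152 of the 2191 transcript bases. An antisense gene, 5330439B14Rik, overlaps 2.54% of the Abcc9 exon bases, and the library kit does not keep the strand. Abcc8, the sulfonylurea receptor of neurons and pancreatic beta cells, went the other way, at 73.9, 66.0 and 38.8. Kcnj11, its pore subunit, was not analysed here.

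The start regions of these neighbours and of Cspg4 and Rgs5 are shown because the channel genes are neighbours with the same order of libraries, Cspg4 differed from the other markers, and Rgs5 had the most reads. The sequences are from RefSeq (GRCm38.p6), which held 7 of the 10 genes, and run 5′ to 3′ on the strand of the gene up to the earlier of the RefSeq and GENCODE start sites. Capitals mark matches on either strand to the motifs searched. These were the E-box of basic helix-loop-helix factors, spelled CANNTG, and the GC box of Sp1-like factors, spelled GGGCGG. The core of sites for RBPJ, the nuclear partner of Notch, was searched as TGGGAA and that of forkhead factors as TAAACA. The TATA box was searched as TATAAA, and the CArG box of serum response factor was searched as well. No letters were shared between matches of different motifs. Kcnj8 is at chr6:142571615-142571864, minus strand, and Abcc9 at chr6:142702316-142702524, minus strand. Cspg4 is at chr9:56864854-56865032, plus strand, and Rgs5 at chr1:169655251-169655500, plus strand.
Kcnj8: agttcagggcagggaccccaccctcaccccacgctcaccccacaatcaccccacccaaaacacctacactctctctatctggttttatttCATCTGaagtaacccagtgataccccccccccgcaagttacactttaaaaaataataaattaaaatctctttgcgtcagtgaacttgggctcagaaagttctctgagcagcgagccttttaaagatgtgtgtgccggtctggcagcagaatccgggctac
Abcc9: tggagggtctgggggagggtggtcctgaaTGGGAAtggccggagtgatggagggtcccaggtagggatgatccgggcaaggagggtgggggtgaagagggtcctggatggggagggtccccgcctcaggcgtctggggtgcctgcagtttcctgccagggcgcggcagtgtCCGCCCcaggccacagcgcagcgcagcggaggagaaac
Cspg4: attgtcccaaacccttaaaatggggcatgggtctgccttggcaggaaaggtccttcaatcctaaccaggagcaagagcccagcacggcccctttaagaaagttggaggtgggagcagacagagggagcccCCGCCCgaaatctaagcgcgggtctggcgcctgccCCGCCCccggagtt
Rgs5: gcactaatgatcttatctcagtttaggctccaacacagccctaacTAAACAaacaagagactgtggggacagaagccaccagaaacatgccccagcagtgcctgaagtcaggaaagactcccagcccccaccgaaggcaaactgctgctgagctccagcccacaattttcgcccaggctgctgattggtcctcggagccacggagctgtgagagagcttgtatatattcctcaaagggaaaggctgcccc

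These windows shared few letters of the kinds searched. The capitals are 1 E-box in Kcnj8, 1 RBPJ core and 1 GC box in Abcc9, 2 GC boxes in Cspg4 and 1 forkhead core in Rgs5. In the 250 bases before the RefSeq start, 5 of the 7 markers held an E-box, as did 66.2% of all 32851 windows of that length in the table. A GC box was in 3 of 7 against 32.7% of all windows, an RBPJ core in 2 against 21.6%, a forkhead core in 2 against 12.03%, and a TATA box in 1 against 12.4%. The CArG box, found in 1.47% of all windows, was in 0 of the 7. A match is a run of letters and not a bound site, and the expression tables hold no measure of binding.

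Rgs5 (ENSMUSG00000026678, chromosome 1, 169655501 to 169695813), which speeds the shut-off of G protein signalling, had 58785, 19759 and 39176 reads, a level of 1122, 955 and 1570.0. It exceeded WT C57BL6-BALB/c by 1.18-fold (1.16 to 1.195), the largest fold above that library among the 10, and 1.41-fold (1.39 to 1.43) lower than in WT C57BL6. A short transcript of Rgs5 of 726 bases had 2.39%, 2.51% and 1.81% of the reads of the main one. Rgs4, a relative also found in mural cells and neurons, was at 377, 735 and 523, lowest in the Cx43-deleted library and highest in WT C57BL6-BALB/c, an order unlike that of Rgs5. Rgs16 was at 12.4, 14.8 and 22.4, and 10.1% of its exon bases overlap another gene.

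Vtn (ENSMUSG00000017344, chromosome 11, 78499091 to 78502324) encodes vitronectin, a secreted matrix protein that pericytes supply to endothelial integrins. It had 21568, 9539 and 20237 reads, a level of 946, 1066.5 and 1861. It was 1.12-fold (1.09 to 1.146) lower than in WT C57BL6-BALB/c and 1.98-fold (1.94 to 2.02) lower than in WT C57BL6. Rgs5 and Vtn thus lay on opposite sides of WT C57BL6-BALB/c. Reads of Rgs5 per read of Vtn were 2.73 (2.68 to 2.77), 2.07 (2.02 to 2.12) and 1.94 (1.90 to 1.97), the highest in the Cx43-deleted library. Of the 4 Vtn transcripts 3 are annotated as retaining introns. Relative to the coding transcript, ENSMUST00000153628 had 49.4%, 47.8% and 50.8% of the reads, ENSMUST00000128479 had 47.6%, 49.3% and 45.8%, and ENSMUST00000146997 had 38.4%, 40.1% and 37.1%. Overlapping transcripts were each given the same read, so these shares do not measure intron retention.

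Atp13a5 (ENSMUSG00000048939, chromosome 16, 29231851 to 29378732), a P5-type transport ATPase used as a marker of brain pericytes, had 3903, 1469 and 2764 reads, a level of 199, 190.0 and 291. Its fold to WT C57BL6-BALB/c was 1.05 (0.989 to 1.12), which counting error covers, and it was 1.495-fold (1.42 to 1.57) lower than in WT C57BL6. Its relatives did not share this order. Atp13a1 was at 172, 147 and 132, Atp13a2 at 866, 754 and 560.3, Atp13a3 at 148, 175 and 139.8, and the chromosome neighbour Atp13a4 at 31.7, 27.3 and 27.3. None of the 4 relatives was highest in WT C57BL6.

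Higd1b and Ndufa4l2 are small mitochondrial proteins of families linked to the response to low oxygen. Higd1b (ENSMUSG00000020928, chromosome 11, 102835849 to 102838040) had 1101, 408 and 800 reads, a level of 56.1, 53.0 and 84.8. Its fold to WT C57BL6-BALB/c was 1.07 (0.951 to 1.20), not detectable as a difference at 408 reads, and it was 1.53-fold (1.40 to 1.68) lower than in WT C57BL6. Ndufa4l2 (ENSMUSG00000040280, chromosome 10, 127514967 to 127517154) had 1166, 513 and 1094 reads, a level of 21.7, 24.2 and 43.1. It was 1.11-fold (1.001 to 1.24) lower than in WT C57BL6-BALB/c and 1.98-fold (1.82 to 2.15) lower than in WT C57BL6. Of its exon bases, 3.43% overlap Shmt2.

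The counterparts of these genes in other cells were likewise lower in WT C57BL6-BALB/c than in WT C57BL6. Ndufa4, the widely expressed relative of Ndufa4l2, was at 14.1, 14.9 and 25.3, Higd1a at 2.70, 2.97 and 3.50, and Cox4i1, the general form of cytochrome oxidase subunit 4, at 101.5, 105 and 153. The lung and pericyte form Cox4i2 was at 10.2, 10.8 and 24.9. Small mitochondrial genes of this kind often have processed copies in the genome, and the sources used here do not say how reads with several matches were treated, so the levels of Ndufa4, Higd1a and Cox4i1 are uncertain. Overlap with other genes adds to this for Higd1a (30.6% of exon bases) and Cox4i1 (17.99%).

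Per length, in reads scaled to transcript length and library size (RPKM), Rgs5 and Vtn stood far above the other markers in each library. Rgs5 was at 268, 227 and 376 RPKM and Vtn at 231, 258 and 457 RPKM. Rgs5 was first in the Cx43-deleted library and Vtn first in both WT libraries, with counting intervals that did not overlap. Pdgfrb followed at 33.2, 35.1 and 58.9 RPKM, the third in every library. Higd1b and Ndufa4l2 came next, at 27.9 and 23.6 RPKM in the Cx43-deleted library. Their intervals overlapped in both WT libraries, at 26.2 and 26.3 RPKM in WT C57BL6-BALB/c and at 42.8 and 46.8 RPKM in WT C57BL6. Atp13a5 was at 15.8, 15.1 and 23.7 RPKM and Kcnj8 at 11.9, 10.7 and 21.8 RPKM. Cspg4 was at 7.74, 15.1 and 13.8 RPKM, so that it could not be told from Atp13a5 in WT C57BL6-BALB/c nor from Anpep in the Cx43-deleted library. Anpep was at 7.57, 7.51 and 10.9 RPKM. Abcc9 was the tenth in each library, at 6.88, 6.20 and 9.60 RPKM, and reads missed 531, 844 and 681 of the 7538 transcript bases.

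**Figure D2:**
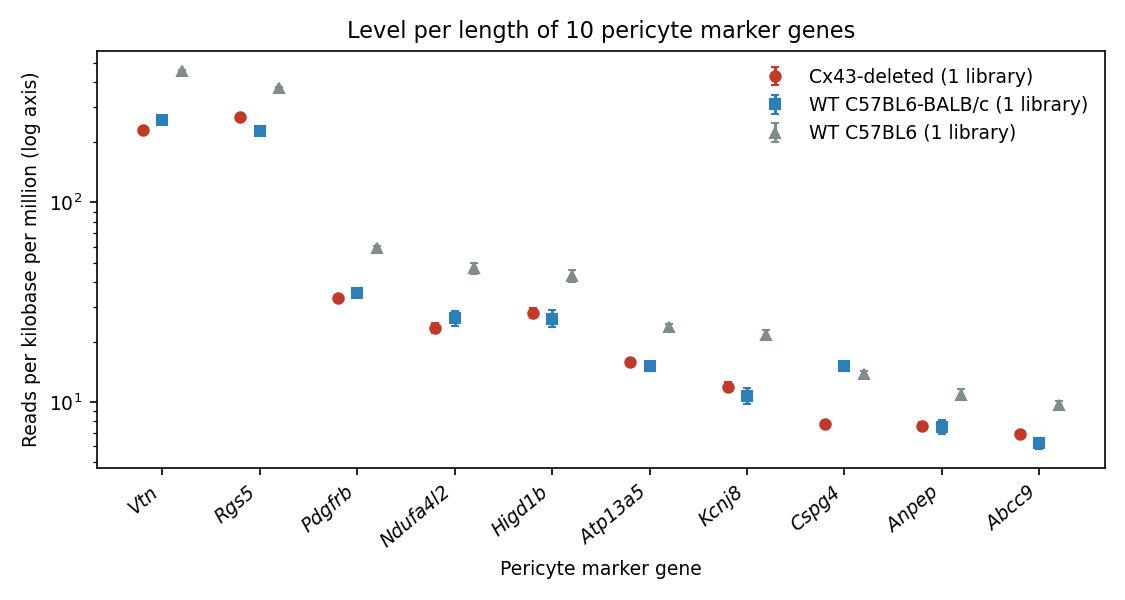
Level per length (RPKM of the most abundant transcript, log axis) of the 10 pericyte markers in the Cx43-deleted (circles), WT C57BL6-BALB/c (squares) and WT C57BL6 (triangles) libraries, 1 library each, with 95% Poisson intervals of the reads as bars. The WT C57BL6 library is the highest for 9 genes, and Cspg4 is the exception, with the Cx43-deleted library at 7.74 and the WT libraries at 15.1 and 13.8 RPKM.

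Summed over the 10 genes, the level was 3052, 3045 and 5006, so the libraries of the mixed background were alike in the sum. Rgs5 made up 36.8%, 31.4% and 31.4% of it and Vtn 31.0%, 35.0% and 37.2%. A level adds up overlapping transcripts that share reads, so it grows with the number of transcripts (4 for Vtn, 2 for Rgs5). These shares therefore do not rank Rgs5 and Vtn against each other.

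Ratios within a library do not depend on how libraries are scaled to each other. Per 1000 reads of Pdgfrb, there were 313 (300.0 to 326), 575 (547 to 606) and 315 (301 to 329) reads of Cspg4. By this measure WT C57BL6-BALB/c stood apart, and the Cx43-deleted and WT C57BL6 libraries did not differ beyond counting error. The other 8 genes moved less relative to Pdgfrb. Between the Cx43-deleted library and WT C57BL6-BALB/c, their ratios differed by factors from 0.945 (Vtn) to 1.24 (Rgs5), where the factor for Cspg4 was 0.543. Abcc9, Rgs5, Anpep, Atp13a5 and Higd1b were highest per Pdgfrb read in the Cx43-deleted library, and Kcnj8, Vtn and Ndufa4l2 in WT C57BL6. The intervals of the highest and the next library overlapped for Anpep, Higd1b, Kcnj8, Vtn and Ndufa4l2.

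**Figure D3:**
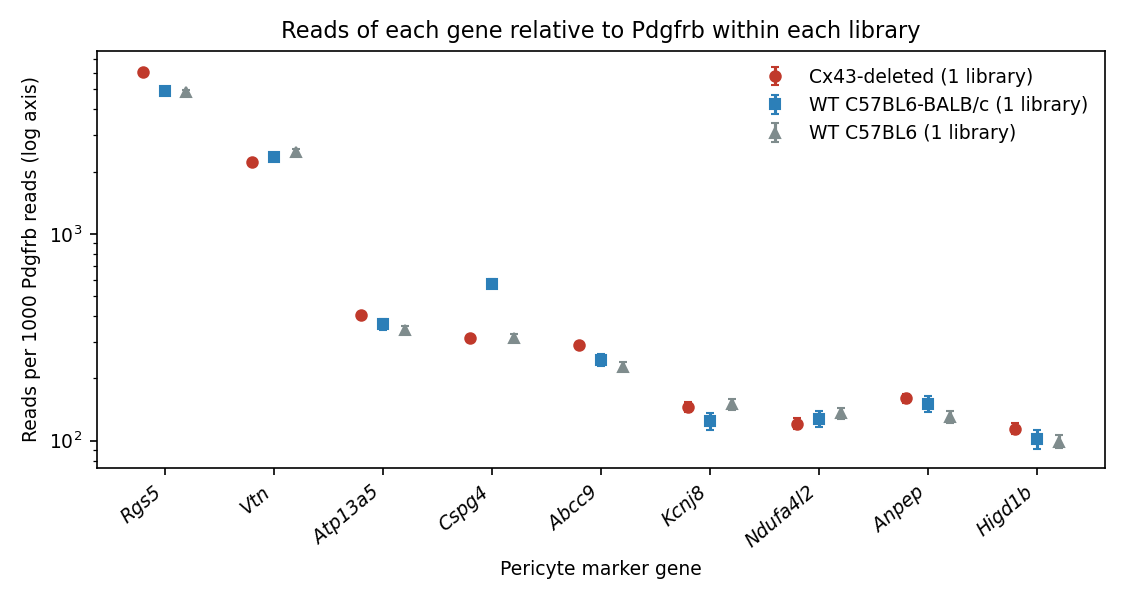
Reads of each of 9 pericyte markers per 1000 reads of Pdgfrb in the same library (log axis), with 95% exact binomial intervals as bars; circles are the Cx43-deleted, squares the WT C57BL6-BALB/c and triangles the WT C57BL6 library, 1 library each. Cspg4 is at 575 in WT C57BL6-BALB/c and at 313 and 315 in the other libraries, and the remaining genes lie closer together.

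A wider list of 28 other pericyte genes, receptors, transporters and transcription factors among them, was all measured. The Cx43-deleted library was the lowest for 21 of the 28 and the highest for 1 (Slc30a10, a manganese transporter, at 77.5, 68.0 and 74.2), beside 35.6% and 33.2% of all genes. None was 2-fold beyond both, beside 0.379% of all genes that were 2-fold below both and 0.428% above both. The median log2 ratio was −0.19 to WT C57BL6-BALB/c, −0.65 to WT C57BL6 and −0.41 from one WT library to the other. The count of 21 depends on the scaling: it would be smaller relative to endothelial markers, whose median to WT C57BL6 was −0.75. Furthest below both were Mcam, an adhesion molecule of mural cells and endothelium, at 311, 582 and 572, Gper1, an oestrogen-responsive receptor, at 29.7, 47.6 and 58.8, S1pr3, a sphingosine-1-phosphate receptor, at 46.4, 69.6 and 88.7, and Enpep, an angiotensin-cleaving peptidase, at 17.9, 26.5 and 35.9. Mcam had the pattern of Cspg4, with reads of Cspg4 per read of Mcam of 0.445, 0.468 and 0.429. Against WT C57BL6, 5 of the 28 were 2-fold lower, beside 2.91% of all genes. This was not particular to pericyte genes. In the same comparison 7 of 20 endothelial markers, 5 of 6 red blood cell genes and 2 of 18 smooth muscle markers were 2-fold lower. The 5 pericyte genes were Foxf2 (log2 ratio −1.04), a transcription factor of brain pericytes, Cox4i2 (−1.25), Art3 (−1.02), Ggt1 (−1.04) and Ecm2 (−1.01), named after their values were seen.

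On the scale of library depth, genes by which pericytes and endothelium signal to each other were mostly lowest in the Cx43-deleted library. Of 16 measured, 15 were lowest there, beside 35.6% of all genes, and 0 were highest there, beside 33.2%. Both counts depend on the scaling: relative to endothelial markers, fewer would be lowest and some would be highest. The list median to WT C57BL6, −0.63, lay above the endothelial median of −0.75. Tgfb1, with log2 ratios of −0.002 to WT C57BL6-BALB/c and −0.42 to WT C57BL6, lay above both endothelial medians (−0.03 and −0.75). By 2-fold, 0 were below both, beside 0.379%, and 0 above both, beside 0.428%. The median log2 ratios were −0.20 to WT C57BL6-BALB/c, −0.63 to WT C57BL6 and −0.44 for WT C57BL6-BALB/c to WT C57BL6. Jag1, a Notch ligand, was at 120.3, 182 and 182. Tek and Tie1, the angiopoietin receptor and its partner, were at 467, 676 and 1054 and at 259, 336 and 516, and Acvrl1, a receptor of bone morphogenetic proteins, at 1014, 1292 and 1596.

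Across the comparisons the 10 pericyte markers had medians close to those of endothelium and unlike those of smooth muscle. Beside WT C57BL6-BALB/c the medians were 0.04 for pericyte markers, −0.03 for 20 endothelial markers and −0.78 for 18 smooth muscle markers. Against WT C57BL6 they were −0.71, −0.75 and −0.44. Between the WT libraries they were −0.70, −0.73 and 0.43, and 16 of the 18 smooth muscle markers were higher in WT C57BL6-BALB/c and 2 lower, beside 53.3% of all genes that were lower. Taken relative to the endothelial median, the pericyte median was 0.07 to WT C57BL6-BALB/c, 0.05 to WT C57BL6 and 0.03 for WT C57BL6-BALB/c to WT C57BL6. Among endothelial genes, Kdr, the main receptor of vascular endothelial growth factor, was at 129, 185 and 309 and Cdh5, the cadherin of endothelial junctions, at 190.4, 244 and 392.3. Slc2a1, the glucose transporter of the blood-brain barrier, was the 1 gene of that list above both WT libraries, at 2828, 1653 and 2162. Whether the share of vessel cells in each preparation set these values was not tested. Red blood cell genes were also highest in WT C57BL6, at 300.4, 381 and 679 summed. The sum of neuron markers was lowest there, but 6 of the 12 neuron markers were lowest in the Cx43-deleted library.

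**Figure D4:**
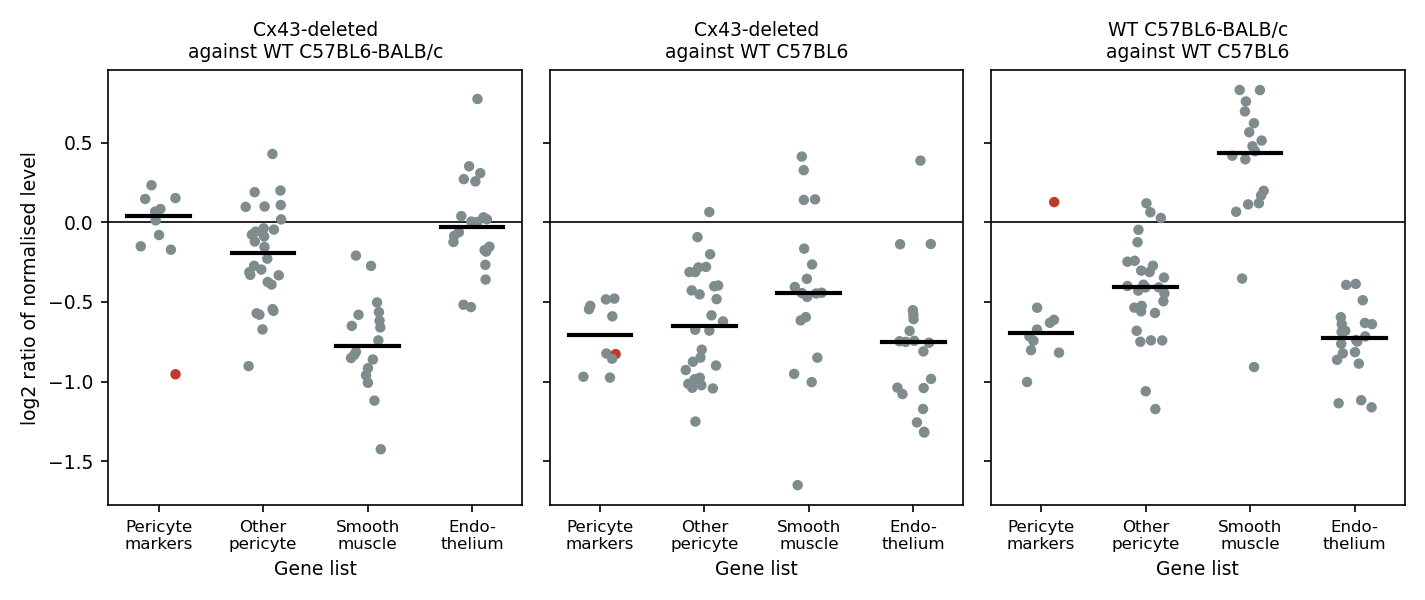
Log2 ratio of level for each measured gene (points) of 4 lists in 3 comparisons of single libraries, with the list median as a black bar. Pericyte markers and endothelium have similar medians in every panel, smooth muscle is at −0.78 in the left panel and 0.43 in the right one, and Cspg4 (red) lies within the range of the smooth muscle genes in each panel.

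Among 66 genes of the other pericyte, smooth muscle and endothelial lists with a level of at least 5 in each library, the genes nearest to the pericyte median in the log2 ratios to both WT libraries were Robo4 (0.02 and −0.74), Ly6c1 (0.00 and −0.75) and Esam (0.03 and −0.61), by Euclidean distance. All 3 are endothelial genes. The distance on the log2 scale was 0.042, 0.055 and 0.0996 for these, and from 0.125 (Higd1b) to 1.001 (Cspg4) for the markers themselves. The 3 genes were picked as the nearest of 66 and the markers were not picked by distance. Their smaller distances therefore do not show a closer match. With 3 libraries, nearness in this sense describes only the order and size of 2 ratios.

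Markers of other cells that a vessel preparation can hold were spread around these values. The median log2 ratios against WT C57BL6-BALB/c and WT C57BL6 were −0.08 and −0.41 for vascular fibroblasts, where Lum was at 8.85, 16.3 and 21.1 and Dcn at 57.8, 92.8 and 103. They were −0.16 and −0.34 for astrocytes, Gja1 included, 0.18 and 0.01 for oligodendrocyte precursors, and −0.06 and −0.34 for oligodendrocytes. Microglia and macrophage markers were at 0.11 and −0.45. Of 12 measured, 2 lay above both WT libraries, beside 33.2% of all genes, and 4 below both, beside 35.6%. Cd163 was above both, at 32.4, 16.9 and 16.6, and Aif1 below both, at 2.93, 4.67 and 3.31. Neuron markers were at −0.15 and −0.03, and red blood cell genes at −0.32 and −1.21. The list of 10 counterparts of the markers, with Cspg5 at 109, 118 and 142, was at −0.09 and −0.35.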

How the data were processed

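RNA-seq of brain vessels was analysed in 3 libraries, 1 per group. For each, the authors deposited a table of 82813 Ensembl transcripts with raw whole-number counts, the count as a fraction of 1 library total, the length and the bases left uncovered, per the file headers. Overlapping transcripts each received the same reads, as the counts sum to 2.55, 2.53 and 2.45 times the totals. The submitters' processing notes name CASAVA 1.8.2, Bowtie and mm10. The counting program and annotation release were not given in the sources used here. PolyA libraries were made with a TruSeq v2 kit, per the labels' protocols.

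Coordinates in the tables reach 197054592 on chromosome 1, beyond the last GRCm38 gene at 195323493, and were not used. Identifiers were matched to GENCODE M21: 69379 matched, 217 on another chromosome were left out, and 13434 did not match. Summed counts of a gene were scaled to CPM with the library total and TMM factors (0.976, 1.00 and 1.02; edgeR 4.0.16, R 4.3.3), with a pseudocount of 0.5 in log2 ratios, which understates ratios of low genes. The filter kept genes that reached a level of 1 in any library. Python 3.11.15 (pandas 2.3.3, numpy 2.4.6, scipy 1.17.1) gave the intervals. With 1 library per group no p-value is given. The steps were tested on simulated counts.

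The members and all gene lists were chosen with earlier results of these data known. All 10 markers and every gene of the PDGF, channel and counterpart lists were named, in other lists up to 4 genes furthest outside both WT libraries, any gene 2-fold beyond both, and the 3 nearest genes. Alternatives were other pseudocounts (0.1 and 1), scaling by total alone, DESeq2 1.42.0 size factors, the most abundant transcript only, transcripts with under 10% overlap, levels relative to endothelium, no filter and a minimum level of 5.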

Additional observations from a re-analysis of the deposited data

How the results depend on the processing

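The median log2 ratio of the 10 pericyte markers was between 0.0018 and 0.07 beside WT C57BL6-BALB/c over the 9 alternatives, and 4 or 5 markers lay below both WT libraries. The count above both was 0 except on the endothelial scale, where it was 5. Leaving aside the endothelial scale, it was between −0.78 and −0.68 for the Cx43-deleted library to WT C57BL6, and between −0.73 and −0.67 for WT C57BL6-BALB/c to WT C57BL6, over the other 8. Relative to the endothelial median these became 0.046 and 0.032, since that scale removes what both lists share. The 2-fold count of Kcnj8 between the WT libraries (−1.003) was lost with a pseudocount of 1 (−0.99), with DESeq2 size factors (−0.98) and on the endothelial scale (−0.28). With scaling by total alone, Vtn (−1.04) and Ndufa4l2 (−1.04) passed 2-fold below WT C57BL6, and Anpep moved from 0.01 to −0.03 against WT C57BL6-BALB/c. Cspg4 stayed between −0.99 and −0.95 against WT C57BL6-BALB/c over the same 8 alternatives, and against WT C57BL6 it was −0.83 but −0.07 on the endothelial scale. No paired analysis was possible because each group had 1 library, and no library could be left out. The shallowest marker rested on 408 reads (Higd1b in WT C57BL6-BALB/c), and variation between mice was not measured.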
